A study of Rattus norvegicus with 46 samples.

Results

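The genes described here encode the proteasome. They were found as all probes of the deposited intensity table whose gene symbol, with the suffix for predicted genes dropped, starts with Psma, Psmb, Psmc, Psmd, Psme, Psmf or Psmg. This gave 37 of the 22517 probes, 1 for each of 37 symbols. They cover 7 alpha and 7 beta subunits of the core, 3 beta subunits of the immunoproteasome, 6 ATPases and 3 other subunits of the base, 6 lid subunits, 2 assembly chaperones of the base and 2 activator subunits. The remaining probe, Psmc3ip, matched the rule by its letters only: it encodes a protein of meiotic recombination named after its binding partner Psmc3, and it is not a subunit.

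The proteasome degrades proteins that carry ubiquitin chains. Its barrel-shaped core is built of alpha rings, which gate the entry, and beta rings, in which 3 kinds of subunit (Psmb5, Psmb6 and Psmb7) cut peptide bonds. A regulatory particle made of a base, whose ATPases unfold the substrate, and a lid, which removes ubiquitin, caps the core. Interferon-gamma is known to induce Psmb8, Psmb9 and Psmb10, which take the places of Psmb5, Psmb6 and Psmb7 in newly built cores (the immunoproteasome), and the activator subunits Psme1 and Psme2. In heart muscle the proteasome is known for the turnover of sarcomere proteins and for the removal of damaged ones.

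Total RNA of cultured heart muscle cells (cardiomyocytes) from adult male wild-type Wistar rats was measured on single-dye Illumina BeadChips after 24 h. The culture medium held 1% bovine serum albumin (BSA) alone in 7 control samples, or the same BSA carrying 0.4 mM of a fatty acid: octanoate (8 samples, saturated, medium chain), palmitate (8, saturated, long chain), stearate (8, saturated, the longest of these saturated chains), oleate (8, the counterpart of stearate with a double bond) or linoleate (7, with a further double bond). All 46 samples, controls included, thus had BSA, and the dose and time were the same for all 5 acids. The labels do not say whether replicates came from separate animals or cultures, so every p-value rests on the spread among these samples alone, and that spread may be technical.

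Between 3090 and 7886 probes were detected per array, that is, had a detection p-value under 0.01 against the negative-control beads. The signal range, taken per array as the 95th percentile of the intensities divided by their median, ran from 4.79 to 20.6. It differed between groups, with medians of 13.7 in the controls, 10.1 under octanoate and 9.82 under palmitate. Under stearate, oleate and linoleate the medians were 8.08, 10.7 and 7.01. Probes detected in at least 7 arrays, 7312 in all, were tested, and all 37 proteasome probes were among them. Of the 12 cardiomyocyte markers with a probe, 11 were detected in at least 7 arrays, and the probe of Actc1, cardiac actin, was detected in 1. Of the markers of other cells, 0 of 4 endothelial, 0 of 3 smooth muscle, 3 of 6 leukocyte and macrophage (Ptprc, C1qa and C1qb in no array) and 4 of 7 fibroblast markers were detected in at least 7 arrays. These are bulk samples, in which fewer cells of a type and less RNA per cell cannot be told apart.

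Most proteasome probes did not pass the test under any acid after quantile normalization, and the members with the largest changes were the immunoproteasome subunits. Psmb9 and Psmb10 fell under palmitate, by 1.19 and 0.87 on the log2 scale, and under stearate, by 0.79 and 0.81. Psmb8 had changes of -0.76 and -0.72 there and did not pass (adjusted p = 0.0509 and 0.0591). Of the other members, Psma5 and Psmd11 rose and Psme1 fell under octanoate, Psmd5 rose under palmitate and Psmd2 fell under stearate. Under oleate and linoleate 0 of 37 passed.

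In numbers, 3 of 37 probes passed under octanoate, where 24.5% of all probes tested passed. Of these 2 were higher, beside 11.6% of all probes, and 1 was lower, beside 13%. Under palmitate 3 of 37 passed, beside 11% of all probes. Here 1 was higher, beside 5.33%, and 2 were lower, beside 5.69%. Under stearate 3 of 37 passed, beside 13.3% of all probes. None was higher, beside 4.46%, and all 3 were lower, beside 8.83%. The share of the proteasome probes, 8.11% under each of these acids, was below that of all probes. Under palmitate and stearate this gap amounts to few of the 37 probes, and it was not tested. These counts hold for quantile normalization: with arrays scaled by their medians, which moved the median of all probes under stearate to -0.49, 11 of 37 passed there, all lower, beside 25.5% of all probes (in addition Psma7, Psmb3, Psmb8, Psmc1, Psmc3, Psmc6, Psmd3 and Psme1). Under octanoate 0 of 37 then passed, beside 9.12% of all probes. Under palmitate 2 of 37 then passed, 5.41% of the members beside 2.84% of all probes. The members' share under stearate was then 29.7%, so under palmitate and stearate it lay above that of all probes.

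Under oleate 0 of 37 passed in limma, with 0 at an unadjusted p under 0.05, beside 0.574% of all probes (0.506% higher, 0.0684% lower). Under linoleate 0 of 37 passed in limma, with 2 at an unadjusted p under 0.05, beside 0.465% of all probes (0.328% higher, 0.137% lower). The median log2 change over the 37 probes was 0.03 under octanoate, -0.05 under palmitate, -0.01 under stearate, -0.06 under oleate and -0.05 under linoleate, and over all probes tested it was -0.02, -0.03, -0.05, -0.01 and -0.02. In no comparison did a proteasome probe separate the acid from the control without overlap, which 6.36%, 2.82%, 1.74%, 0.246% and 0.301% of all probes did in the same order of acids. The 5 comparisons share the control arrays.

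**Figure D1:**
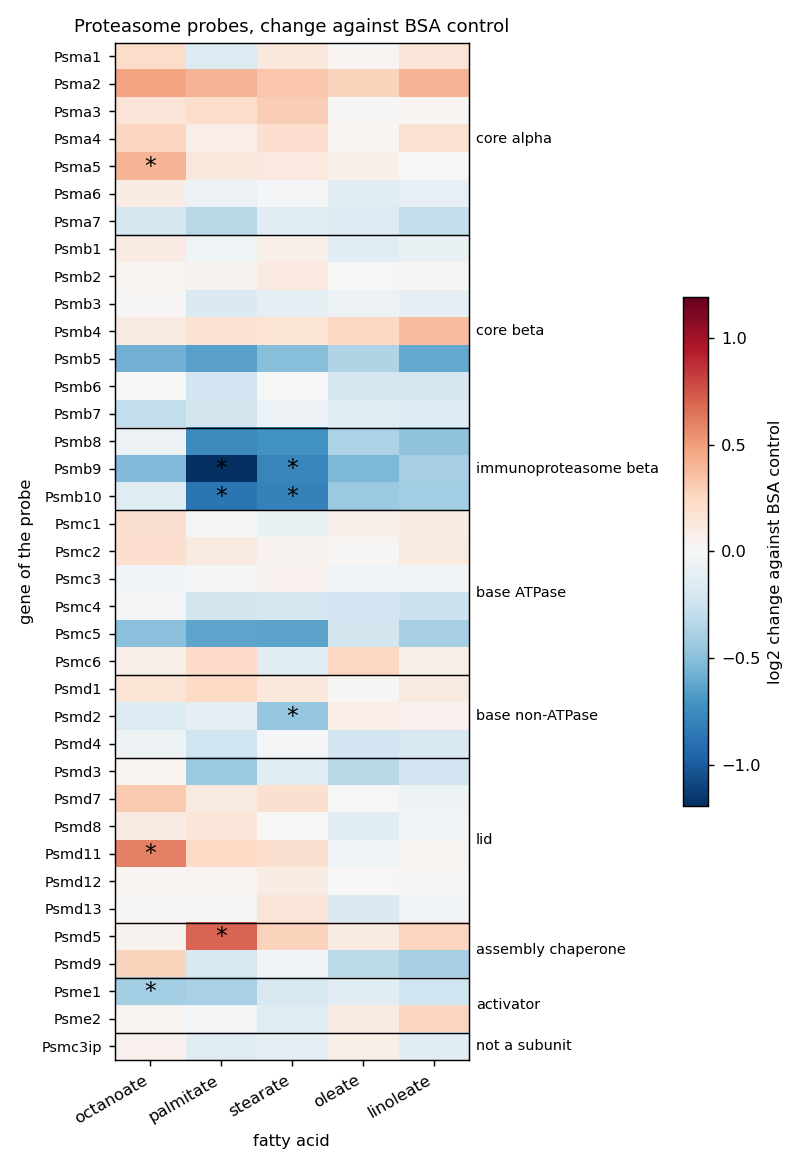
Log2 change of each of the 37 proteasome probes (rows, grouped by role) under each fatty acid against BSA control (columns); red is higher, blue is lower and an asterisk marks an adjusted p under 0.05 in limma. The 9 asterisks fall on 7 genes, with Psmb9 and Psmb10 marked under both palmitate and stearate.

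Psmb8, Psmb9 and Psmb10 are the inducible catalytic subunits, and Psmb9 changed the most of the 37 members. Its level on the normalized log2 scale was 9.50 at the lowest, 9.95 at the median and 10.49 at the highest over the 7 control arrays. Under palmitate these values were 7.60, 9.08 and 9.60, and under stearate 8.79, 9.26 and 9.55. All 8 palmitate and all 8 stearate arrays lay below the control median, and the groups overlapped, since the highest of each acid exceeded the lowest control. The change under palmitate was -1.19 (SE 0.27, adjusted p = 0.00234), 2.28-fold lower. Under stearate it was -0.79 (SE 0.27, adjusted p = 0.0419), 1.73-fold lower, and this call was lost when any of 9 of the 15 arrays was left out (adjusted p up to 0.0977; controls 2, 4, 6 and 7 and stearate 2, 3, 6, 7 and 8). The stearate call was also lost without the detection filter (adjusted p = 0.107). The call under palmitate held in all 9 alternative settings and with each of the 15 arrays left out.

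Psmb10, the inducible counterpart of Psmb7, had a control range of 10.94 to 11.97 with a median of 11.67. The palmitate arrays ran from 10.05 to 11.19 (median 10.74) and the stearate arrays from 10.28 to 11.16 (median 10.79). Again each of the 16 treated arrays lay below the control median, and the ranges overlapped. The change was -0.87 (SE 0.24, adjusted p = 0.0145) under palmitate and -0.81 (SE 0.24, adjusted p = 0.0208) under stearate. With replicates 4 and 7 dropped from each group neither passed (adjusted p = 0.154 and 0.0527), and without stearate replicate 7 the stearate change did not pass (adjusted p = 0.0511). Nor did the stearate change pass without the detection filter (adjusted p = 0.0548).

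Psmb8, the inducible counterpart of Psmb5, ran from 11.07 to 12.00 (median 11.31) in the controls. It ran from 10.03 to 11.49 (median 10.66) under palmitate and from 10.04 to 11.22 (median 10.77) under stearate, with 7 of 8 and 8 of 8 arrays below the control median. The changes of -0.76 (95% interval -1.29 to -0.23) and -0.72 (-1.24 to -0.19) did not pass in limma over all groups (adjusted p = 0.0509 and 0.0591). They did pass when only the groups compared entered the model (adjusted p = 0.0326 and 0.0377).

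Under the other acids the 3 subunits had negative changes that did not pass. Under octanoate Psmb9 had -0.53 (adjusted p = 0.151), while Psmb10 had -0.14 and Psmb8 -0.06. Under oleate the changes were -0.53 for Psmb9, -0.45 for Psmb10 and -0.38 for Psmb8, each with an adjusted p of 1. Under linoleate they were -0.39, -0.42 and -0.48 (adjusted p from 0.777 to 0.847). The intervals of the oleate changes reach from -1.07 to 0.01 for Psmb9 and from -0.93 to 0.04 for Psmb10, so a fall like that under stearate lies within them.

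**Figure D2:**
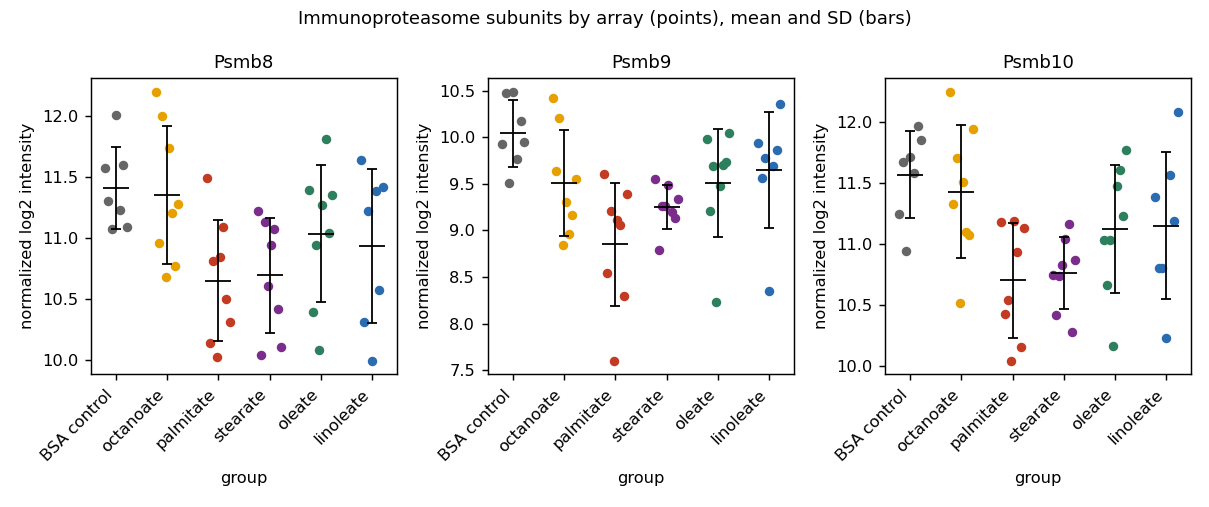
Normalized log2 intensity of Psmb8, Psmb9 and Psmb10 in each array (points) by group, with the group mean and SD (bars). All 8 palmitate and all 8 stearate arrays lie below the control median for Psmb9 and Psmb10, and the control, oleate and linoleate arrays overlap widely.

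The promoters of Psmb8, Psmb9 and Psmb10 are shown, from 250 bases before to 50 bases after the start site, from RefSeq on the rat build GRCr8. Promoters were found for 35 of the 37 members. Capitals mark matches on either strand of 3 motifs that were searched: the core of the interferon-stimulated response element (GAAA, any 2 bases, GAAA), CCAAT, the box bound by NF-Y, and TGACNNNGC, a core of the antioxidant response element. The sequences read 5′ to 3′ along the gene, and the motifs do not overlap each other in them. Psmb8 is taken from chr20:4656982-4657281 on the minus strand, Psmb9 from chr20:4668750-4669049 on the plus strand and Psmb10 from chr19:50743243-50743542 on the minus strand.
Psmb8: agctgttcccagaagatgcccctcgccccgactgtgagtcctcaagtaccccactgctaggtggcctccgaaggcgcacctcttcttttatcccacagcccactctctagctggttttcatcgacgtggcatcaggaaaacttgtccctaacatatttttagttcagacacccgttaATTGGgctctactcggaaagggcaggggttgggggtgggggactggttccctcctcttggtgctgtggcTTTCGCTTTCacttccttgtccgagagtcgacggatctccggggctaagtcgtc
Psmb9: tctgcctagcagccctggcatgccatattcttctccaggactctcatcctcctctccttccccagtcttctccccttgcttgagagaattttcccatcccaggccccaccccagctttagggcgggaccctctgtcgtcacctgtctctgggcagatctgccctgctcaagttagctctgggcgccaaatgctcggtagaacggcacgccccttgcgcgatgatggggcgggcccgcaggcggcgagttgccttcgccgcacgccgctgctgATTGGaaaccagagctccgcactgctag
Psmb10: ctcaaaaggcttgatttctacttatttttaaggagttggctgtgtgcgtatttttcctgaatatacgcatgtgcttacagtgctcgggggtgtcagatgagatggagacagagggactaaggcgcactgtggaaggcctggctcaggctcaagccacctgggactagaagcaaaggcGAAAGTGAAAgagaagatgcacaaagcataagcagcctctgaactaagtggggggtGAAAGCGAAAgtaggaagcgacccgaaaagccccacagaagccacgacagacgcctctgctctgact
The sequence of Psmb8 holds the interferon element on the opposite strand at position -4 from the start site and CCAAT on the opposite strand at -73. Psmb10 holds it 2 times, at -73 and -17, and Psmb9 holds CCAAT on the opposite strand at 23 and no match of the interferon element. In all, 6 of the 35 member promoters hold the interferon element (Psma4, Psmb3, Psmb8, Psmb10, Psmd7 and Psme2), against 3.92% of 33469 promoters of the same length. CCAAT is in 18 of 35 member promoters against 37.5% of all, and TGACNNNGC in 7 of 35 (Psma3, Psmb2, Psmb5, Psmb6, Psmd1, Psmd3 and Psmd9) against 12.1%. These matches describe letters in a window and are not evidence of binding.

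Each inducible subunit was also set against the constitutive subunit it replaces, as the log2 ratio of the intensities within an array. The ratio of 2 probes has no absolute meaning, so only its difference between groups is read, and the pairs were chosen after the values had been seen. For Psmb9 over Psmb6 the control arrays ran from -3.40 to -2.80 (median -3.07) and the palmitate arrays from -4.69 to -3.48 (median -4.18), with no overlap. The ratio fell by 0.96 under palmitate (two-sided exact permutation p = 0.000311, the smallest this design allows; Benjamini-Hochberg 0.00466 over 15 tests). Under stearate, with arrays from -4.30 to -3.37, it fell by 0.79 (exact permutation p = 0.000932, adjusted 0.00466), lower than the control median in 8 of 8 arrays.

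Psmb10 over Psmb7 ran from -1.20 to -0.26 in the controls and from -1.74 to -1.05 under stearate. It fell by 0.74 under stearate (exact permutation p = 0.000622, adjusted 0.00466), in 8 of 8 arrays. Under palmitate its difference of -0.65 did not pass the adjustment (exact permutation p = 0.0190, adjusted 0.0711), with 6 of 8 arrays below the control median. This one passed without control replicate 3 (adjusted 0.0425) and without palmitate replicate 1 or 6 (adjusted 0.0437 each). Psmb8 over Psmb5 differed by -0.12 under palmitate and -0.21 under stearate and passed under no acid (exact permutation, adjusted p from 0.436 to 0.963). Single arrays moved these values: without palmitate replicate 7, whose ratio was 1.68, the difference was -0.44 (adjusted 0.272), and without stearate replicate 7, at 1.26, it was -0.49 (adjusted 0.269). Without control replicate 4 the differences were 0.07 and -0.02. Over all arrays left out singly, they ran from -0.44 to 0.07 and from -0.49 to -0.02. The Psmb5 probe itself varied widely, with an SD of up to 1.13 within a group. No ratio passed under octanoate, oleate or linoleate.

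**Figure D3:**
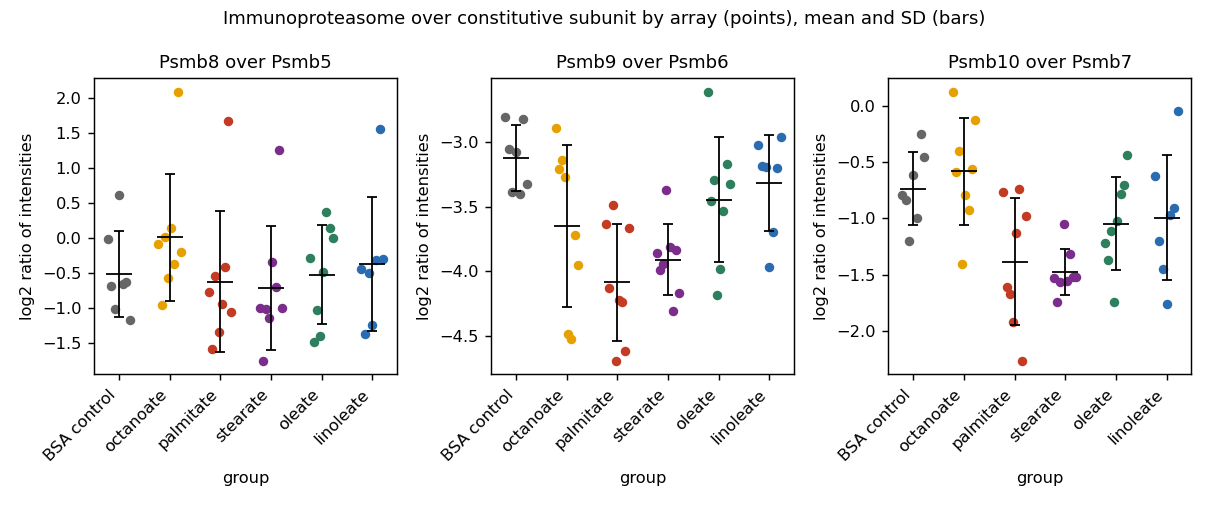
Log2 ratio of the intensities of each inducible subunit to the constitutive subunit it replaces, in each array (points) by group, with mean and SD (bars). For Psmb9 over Psmb6 all palmitate points lie below all control points, and for Psmb8 over Psmb5 the groups overlap.

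Fibroblast markers had lower median summed levels under every acid than in the controls, as these 3 subunits did. The sum rests mainly on Dcn and Col1a2, with mean levels of 10.87 and 9.11. Lum, Postn, Pdgfra and Col3a1 were detected in 13, 12, 3 and 2 of 46 arrays. The summed intensity of the 7 fibroblast markers ran from 2102 to 7896 (median 4600) in the controls, from 1593 to 4769 (median 2100) under palmitate, from 1432 to 4846 (median 2006) under stearate, from 1831 to 5601 (median 2599) under octanoate, from 2113 to 6411 (median 3600) under oleate and from 1804 to 6448 (median 2801) under linoleate. Decorin (Dcn), a matrix proteoglycan of fibroblasts, fell by 1.14 under stearate (limma, adjusted p = 0.0457), beside 8.83% of all probes that were lower. It was the only one of the 4 tested fibroblast markers to pass under an acid, and this call was lost without any of 9 of the 15 arrays (adjusted p up to 0.134). Of the 3 tested leukocyte markers 2 (not the same 2 throughout) had negative values under each acid, with list medians of -0.26 under palmitate and -0.25 under stearate. Of the 3, Cd68, a lysosomal protein of macrophages, rose by 1.22 under octanoate (adjusted p = 7.42e-05) and by 0.70 under palmitate (adjusted p = 0.0329, lost without any of 6 of the 15 arrays). Cd68 was detected in 1 control, 8 octanoate and 4 palmitate arrays, so its control level lies near background. Of the 11 tested cardiomyocyte markers 4 fell under octanoate (Myh7, Pln, Tnnc1 and Tnnt2), beside 13% of all probes that were lower. There all 11 were negative (median -0.36), and Tnnc1 and Tnnt2 did not pass under median scaling. No cardiomyocyte marker passed under palmitate (10 negative, median -0.23) or stearate (4 negative, median 0.09). Between acids, Myh7 was higher under palmitate than octanoate, beside 1.38% of all probes, and passed in 10 of 16 fits with an array left out. Tnnc1 and Tnni3 were lower under oleate than stearate, beside 2.28%. These cardiomyocyte calls were lost under median scaling. Cd68, detected in 0 stearate arrays, was lower under stearate than palmitate, beside 3% of all probes, with each array left out as well. Col1a1, a main collagen of fibroblasts, was detected in no array. The part of other cells in the changes of the 3 subunits was not tested.

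Across the 46 arrays, the deviations of the 3 subunits from their group means went together. Pearson's r was 0.738 between Psmb8 and Psmb9, 0.718 between Psmb8 and Psmb10 and 0.814 between Psmb9 and Psmb10, with Spearman's rho of 0.700, 0.682 and 0.727. Each had a permutation p of 1e-05, the smallest that 100000 permutations can give (4e-05 after Benjamini-Hochberg adjustment over 12 relations). Without the 2 arrays farthest from the median of the gene named second the r values were 0.671, 0.654 and 0.760. Same-numbered arrays of several acids deviate together, so the arrays are not fully independent and these p-values are too small. With the means of the replicate numbers also taken out, r was 0.760, 0.802 and 0.840. Control arrays did not deviate together with same-numbered arrays of the acids, so for them this step has no pairing behind it.

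The summed level of the 4 tested fibroblast markers went with Psmb8 at r = 0.416 (rho = 0.375, permutation p = 0.0042 and 0.01, adjusted 0.0063 and 0.015) and with Psmb9 at r = 0.472 (rho = 0.480, permutation p = 0.001 and 0.00081, adjusted 0.0024 for both). For Psmb10 r was 0.0921 (rho = 0.0253, permutation p = 0.54 and 0.87, the same after adjustment). Dcn and Col1a2 had the brightest probes of these 4 markers. Without the 2 arrays farthest in the fibroblast level the r values were 0.408, 0.489 and 0.0700, and with the number means taken out they were 0.582, 0.708 and 0.538. The signal range of the array had r from -0.425 to -0.392 with the 3 subunits (adjusted permutation p from 0.0063 to 0.0095). With the number means taken out the values were -0.27 for Psmb8, -0.27 for Psmb9 and -0.14 for Psmb10. With the signal range as a covariate all 3 passed under both palmitate (adjusted p = 0.0074 for Psmb8) and stearate (0.0076 for Psmb8). The covariate is unbalanced between the groups compared, with medians of 13.7 in the controls, 9.82 under palmitate and 8.08 under stearate. Signal range and acid thus cannot be fully told apart.

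Genes of interferon response and antigen presentation share known inducers with the 3 subunits. Of 17 such genes with a probe, 15 were tested. Under palmitate 0 of 15 passed in limma, with 4 at an unadjusted p under 0.05, and 14 had negative values with a median log2 change of -0.58, while the median over all probes was -0.03. Under stearate 2 of 15 fell, beside 8.83% of all probes that were lower, so the count is near the background. They were Tap2, a subunit of the peptide transporter that feeds antigen presentation, by 0.84 (adjusted p = 0.00942) and Cxcl10, an interferon-induced chemokine, by 1.77 (adjusted p = 0.0436). The list's median there was -0.55. Cxcl10 did not pass without any of 10 of the 15 arrays (adjusted p up to 0.115), while Tap2 passed without each. However, Tap2 was detected in 14 of 46 arrays, with 4 control and 1 stearate array among them, so its fall lies near background. Under oleate and linoleate 0 of 15 passed in limma, with 1 and 0 at an unadjusted p under 0.05 and medians of -0.30 and -0.27. Across arrays the median of this list went with Psmb8 at r = 0.345 (rho = 0.314, permutation p = 0.018 and 0.034, adjusted 0.022 and 0.041) and with Psmb9 at r = 0.514 (rho = 0.430, permutation p = 0.00028 and 0.0031, adjusted 0.00084 and 0.0066). For Psmb10 r was 0.304 (permutation p = 0.04, adjusted 0.044) and the rank relation did not pass (rho = 0.182, permutation p = 0.22, adjusted 0.24). Without the 2 arrays farthest in the list's median r was 0.466, 0.584 and 0.359, and with the number means taken out it was 0.378, 0.541 and 0.572.

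The constitutive core was largely below the threshold. Of the 7 alpha subunits, 1 rose under octanoate, beside 11.6% of all probes that were higher, and none passed under another acid. Of the 7 beta subunits none passed under any acid. The log2 changes of the alpha subunits lay between -0.33 and 0.47 over the 5 acids, and those of the beta subunits between -0.64 and 0.37. Psma5, an alpha ring subunit, ran from 11.32 to 11.92 (median 11.56) in the controls and from 11.75 to 12.26 (median 11.94) under octanoate, where 8 of 8 arrays lay above the control median and the ranges overlapped. It rose by 0.41 (SE 0.13, adjusted p = 0.0168), 1.33-fold. This call held with each array left out, and it was lost without the arrays numbered 4 and 7, without the detection filter and under median scaling. The brightest probes of the core were those of Psma6 and Psmb1, with mean levels of 13.58 and 13.31, which is brightness and not RNA abundance. Psma3 was detected in 7 of 46 arrays, so that its values lie near background in most.

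Psmb5, the constitutive subunit with chymotrypsin-like activity, had values of -0.57 under octanoate, -0.64 under palmitate, -0.51 under stearate and -0.61 under linoleate, and none passed. Single low arrays stood behind part of these values: the lowest octanoate array had a level of 8.68 against a group median of 11.59, and the lowest palmitate array 8.83 against 11.44. The control median was 11.99, so these group medians were lower as well. The low array was replicate 7 under octanoate, palmitate and stearate (9.16), and replicate 6 under linoleate (9.01). Its 95% interval under palmitate ran from -1.52 to 0.23.

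In the base, 1 of 9 subunits passed under an acid, lower under stearate, where 8.83% of all probes were lower. The 6 ATPases (Psmc1 to Psmc6) had changes between -0.64 and 0.24 over the 5 acids, and none passed under any acid. Psmc1 had the brightest ATPase probe, with a mean level of 13.46, and Psmc5 was detected in 44 of 46 arrays. Among the non-ATPase subunits Psmd1, Psmd2 and Psmd4, of which Psmd4 is a ubiquitin receptor and had the brightest probe (mean 11.57), Psmd2 fell under stearate.

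Psmd2, a large scaffold subunit to which ubiquitin shuttle proteins dock, ran from 10.28 to 11.06 (median 10.35) in the controls and from 9.78 to 10.54 (median 9.98) under stearate. The ranges overlapped through stearate replicate 1, and 7 of 8 stearate arrays lay below the control median. It fell by 0.46 (SE 0.16, adjusted p = 0.0440), 1.37-fold, a call that was lost without any of 9 of the 15 arrays (adjusted p up to 0.132; controls 2, 4, 6 and 7 and stearate 3, 5, 6, 7 and 8). It was also lost without the detection filter (0.149), with replicates 4 and 7 dropped (0.110) and with only the groups compared (0.0751). Under the other acids its change lay between -0.16 and 0.08 and did not pass.

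In the lid, 1 of 6 subunits passed, higher under octanoate, where 11.6% of all probes were higher. Psmd11, which bridges the lid and the core, ran from 13.08 to 13.66 (median 13.50) in the controls and from 13.55 to 14.46 (median 14.04) under octanoate. All 8 octanoate arrays lay above the control median, and the lowest of them overlapped with the highest controls. It rose by 0.60 (SE 0.18, adjusted p = 0.0108), 1.51-fold, with each array left out as well, though not under median scaling (adjusted p = 0.144). Its probe was the brightest of the lid (mean 13.59). The other 5 lid subunits, among them Psmd7, a partner of the deubiquitinating subunit, had changes between -0.44 and 0.32 over the 5 acids. Psmd8 was detected in 21 and Psmd13 in 40 of 46 arrays.

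Of the 2 chaperones that help to assemble the base, Psmd5 passed under palmitate, where 5.33% of all probes were higher. It ran from 8.03 to 9.79 (median 8.80) in the controls and from 9.03 to 10.01 (median 9.50) under palmitate, so that the ranges overlapped widely, with 8 of 8 arrays above the control median. It rose by 0.69 (SE 0.23, adjusted p = 0.0414), 1.62-fold, and the call was lost without any of 9 of the 15 arrays (adjusted p up to 0.141; controls 2, 4, 5 and 7 and palmitate 3 to 7). With replicates 4 and 7 dropped from each group the change was 0.41 (adjusted p = 0.480), and the call was also lost without the detection filter (0.128), with only the groups compared (0.0767) and under median scaling (0.527). Psmd9 passed under no single acid. Its changes were 0.27 under octanoate and -0.32 and -0.40 under oleate and linoleate, and it was among the members that passed the joint test of all acids.

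Psme1, a subunit of the activator ring that interferon-gamma induces, fell under octanoate. It ran from 13.92 to 14.32 (median 14.21) in the controls and from 13.27 to 14.04 (median 13.87) under octanoate, below the control median in 8 of 8 arrays and with overlapping ranges. The fall was 0.41 (SE 0.15, adjusted p = 0.0390), 1.33-fold, and it did not pass without any of 8 of the 15 arrays (adjusted p up to 0.0983; controls 1, 2, 4, 5 and 7 and octanoate 4, 6 and 7). With replicates 4 and 7 dropped from each group the change was -0.24 (adjusted p = 0.110), and the call was also lost without the detection filter (0.0775) and under median scaling (0.218). Under palmitate its change of -0.38 did not pass (adjusted p = 0.0857), with 8 of 8 arrays below the control median. Psme2, its partner in the ring, had changes between -0.15 and 0.26. Psmc3ip, the probe that is not a subunit, was detected in 9 of 46 arrays and had changes between -0.15 and 0.07.

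**Figure D4:**
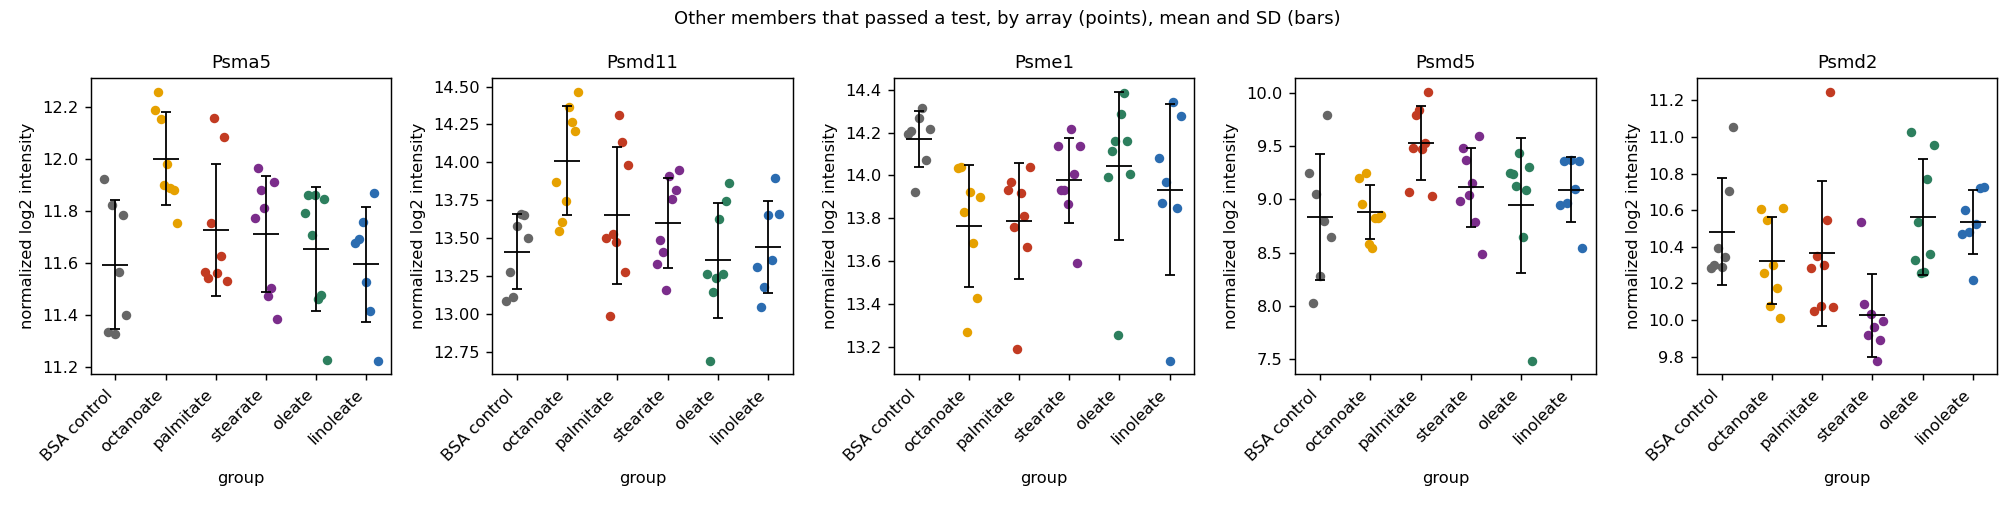
Normalized log2 intensity of the 5 other members that passed a comparison, Psma5, Psmd11, Psme1, Psmd5 and Psmd2, in each array (points) by group, with mean and SD (bars). Octanoate lies highest for Psma5 and Psmd11, palmitate highest for Psmd5 and stearate lowest for Psmd2, and in each panel the groups overlap.

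The precision of these values bounds what could have been missed. Over the 33 members other than the 3 inducible subunits and Psmc3ip, the 95% interval lay within a 1.5-fold change in either direction for 18 under octanoate, 18 under palmitate, 18 under stearate, 21 under oleate and 19 under linoleate. The median interval of these 33 reached 0.36 to either side against control for each acid but linoleate, where it was 0.37, and that of all probes tested reached 0.48 or, under linoleate, 0.49. For the remaining members, such as Psma2, Psmb5 and Psmc5 with the widest bars, a change of over 1.5-fold lies within the interval.

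**Figure D5:**
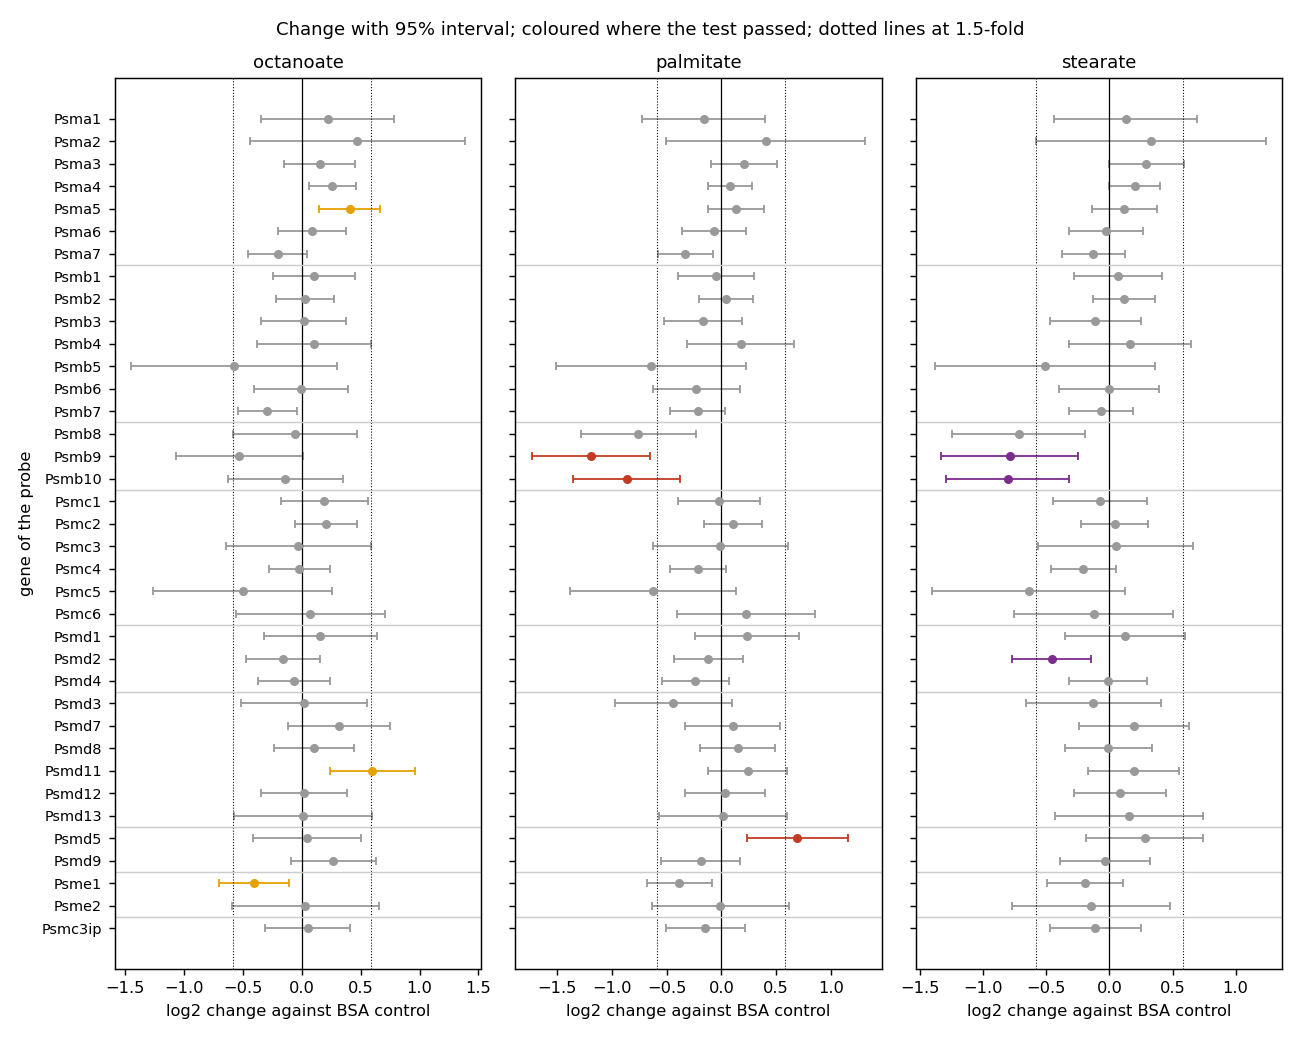
Log2 change of each proteasome probe under octanoate, palmitate and stearate against BSA control (points) with its 95% interval (bars); colour marks an adjusted p under 0.05 in limma and dotted lines mark a 1.5-fold change. The points of Psmb8, Psmb9 and Psmb10 lie left of the dotted line under palmitate and stearate, while the points of most others stay between the lines. The whole interval lies between the lines for 20, 19 and 19 of the 37 probes under octanoate, palmitate and stearate.

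In the joint F test of the 5 acids against control, 5 of 37 members passed, beside 28.6% of all probes tested. They were Psmb9 (limma, adjusted p = 0.0118), Psmb10 (0.0154), Psmd11 (0.0252), Psmd9 (0.0254) and Psmd2 (0.0419). Psmd9, a base assembly chaperone, ran from 7.85 to 8.68 (median 8.43) in the controls, from 8.35 to 8.87 under octanoate, from 7.74 to 8.55 under palmitate, from 7.39 to 8.88 under stearate, from 7.85 to 8.31 under oleate and from 7.30 to 8.27 under linoleate. The levels under every acid overlapped with those of the controls.

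Direct comparisons between acids, all at 0.4 mM and 24 h, were made for 4 pairs in which chain length or the number of double bonds differs. P-values were adjusted over all probes within each pair. No member separated the acids of a pair without overlap, which 0.615% of all probes did for palmitate and octanoate, 0.643% for stearate and palmitate, 0.629% for oleate and stearate and 0.0137% for linoleate and oleate. Palmitate has a longer chain than octanoate. In this pair 0 of 37 members passed, beside 2.2% of all probes (1.38% higher, 0.821% lower), with 7 at an unadjusted p under 0.05 in limma. Psmb10 was lower under palmitate by 0.73 (95% interval -1.20 to -0.26, adjusted p = 0.0959), Psmd5 higher by 0.65 (0.20 to 1.09, adjusted p = 0.126) and Psmb8 lower by 0.70 (-1.21 to -0.19, adjusted p = 0.152), none of which passed. Same-numbered arrays of these groups deviate together, and with the replicate number as a block 4 of 37 passed, beside 5.66% of all probes: Psmb10 (adjusted p = 0.0172) and Psmb8 (0.0220) lower under palmitate, Psmd11 lower by 0.36 (0.0476) and Psmd5 higher (0.0476).

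Stearate has a longer chain than palmitate. Between them 0 of 37 passed, beside 4.09% of all probes (1.09% higher, 3% lower), with 1 at an unadjusted p under 0.05 in limma. The smallest p-values were those of Psmd2 (-0.34, interval -0.64 to -0.03, adjusted p = 0.202), Psmd5 (-0.41, -0.86 to 0.03, adjusted p = 0.280) and Psma7, an alpha ring subunit (0.20, -0.04 to 0.44, adjusted p = 0.334). Psmb9 differed by 0.40 with an interval from -0.12 to 0.92, and Psmb8 and Psmb10 by 0.04 and 0.06 with intervals within -0.47 to 0.55. The intervals of these 3 subunits hold no difference, and for Psmb9 they also hold one of up to 0.92 toward stearate.

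Oleate differs from stearate by a double bond. Of 37 members 1 passed, beside 6.87% of all probes (4.58% higher, 2.28% lower): Psmd2 was higher under oleate. It ran from 10.26 to 11.03 (median 10.45) under oleate, above the stearate median in 8 of 8 arrays. The difference was 0.54 (SE 0.15, adjusted p = 0.0201), 1.45-fold, and it did not pass without oleate replicate 1 (adjusted p = 0.0582) or when only these groups entered the model (adjusted p = 0.0730). The inducible subunits had positive differences of 0.34 for Psmb8, 0.26 for Psmb9 and 0.36 for Psmb10, none of which passed (adjusted p from 0.372 to 0.601), so that their falls under stearate and not under oleate are not shown to differ between the acids.

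Linoleate has a further double bond. Against oleate 0 of 37 members passed in limma, with 0 at an unadjusted p under 0.05, beside 0% of all probes. The smallest p-values were those of Psma4, an alpha ring subunit (0.16, interval -0.04 to 0.36), Psmc3ip (-0.20) and Psma7 (-0.12), each with an adjusted p of 1. Against control, the smallest p-values under linoleate were those of Psma7 (-0.28, adjusted p = 0.655), Psmd9 (-0.40, adjusted p = 0.664) and Psmc4, an ATPase (-0.26, adjusted p = 0.731), and under oleate those of Psmb9, Psmb10 and Psmd9 (each adjusted p = 1).

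Genes that work with the proteasome are listed last. Of 15 tested partners (ubiquitin genes, shuttle factors, deubiquitinases and the segregase Vcp), 3 rose under octanoate, beside 11.6% of all probes that were higher and 24.5% that passed in either direction. Zfand2a, an arsenite-inducible protein that binds the regulatory particle, rose by 2.18 (adjusted p = 1.7e-06), Ubqln1, which carries ubiquitinated proteins to the proteasome, by 0.60 (adjusted p = 0.00864) and Vcp by 0.44 (adjusted p = 0.0255). Under palmitate and stearate 1 of 15 passed, again Zfand2a, higher by 2.75 (adjusted p = 1.26e-08) and 2.16 (adjusted p = 3.22e-06), and under oleate and linoleate 0 of 15, with 0 and 0 at an unadjusted p under 0.05 in limma. Of all probes 5.33% were higher under palmitate and 4.46% under stearate, so the counts there are near the background. Oleate was below stearate by 2.11 for Zfand2a (adjusted p = 4.61e-06). The list's median change was 0.39, 0.17, 0.07, 0.04 and -0.00 in the order octanoate, palmitate, stearate, oleate and linoleate. Ubqln1 and Vcp did not pass under median scaling (adjusted p = 0.338 and 0.298), and Vcp did not pass without any of 5 of the 15 arrays (adjusted p up to 0.0777).

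Under older symbols the array also held a lid subunit, Psmd6, and the core assembly chaperones Psmg1 and Psmg2, which the symbol rule does not reach. Psmg1 fell under stearate by 0.49 (adjusted p = 0.0481), a call that was lost without any of 10 of the 15 arrays (adjusted p up to 0.105). The other 2 passed in no comparison, with Psmd6 at 0.03 under palmitate and -0.03 under stearate.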

How the data were processed

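Per the labels and the submitters' processing notes, the authors exported bead intensities from BeadStudio 3. The deposited table gives mean bead intensity per probe and array, with no background subtraction or normalization found in its values, and a detection p-value per the file headers. The series' deposited value table holds intensities that rank as these do and were alike in distribution between arrays, and it served as an alternative. Intensities were background-corrected with limma 3.58.1 in R 4.3.3 (normal-exponential model, negative controls inferred from the detection p-values, offset 16), quantile normalized between arrays and log2 transformed. A limma model with 6 group means over 46 arrays and an intensity trend tested 9 comparisons and any acid, two-sided, with Benjamini-Hochberg adjustment over all 7312 probes and a threshold of 0.05. The code was tested on simulated data. The number of arrays limits the precision. Members and lists were chosen with earlier results of these data known. Named are, per comparison, up to 8 members that passed (5 between acids) or the 3 smallest p-values, the brightest of each role, and list genes that passed. Members were named by RefSeq accession (27) or symbol (10) through a GRCr8 gene table used for names only. Same-numbered arrays deviated together (8 of 8 pairs over 0.1) for palmitate with octanoate (0.325 to 0.875), stearate with palmitate (0.135 to 0.753) and oleate with stearate (0.180 to 0.849). Control arrays did not deviate together with the same-numbered arrays of any acid (for oleate -0.625 to 0.517, with 3 of 7 pairs over 0.1). Chip and scan batches are not given in the sources used here. The result of the interferon list under octanoate is not reported here.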

Additional observations from a re-analysis of the deposited data

Results flagged for a closer look

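Of 54 groups of arrays examined for 9 named members, 8 had an array far from the others by Dixon's test, which marks about 5% of groups by chance. Replicate 4 was the far array in 5 of them. Psme1 had 13.19 in palmitate replicate 4 (the others 13.67 to 14.04), 13.26 in oleate replicate 4 (13.99 to 14.39) and 13.13 in linoleate replicate 4 (13.85 to 14.34). Psmb9 had 8.24 in oleate replicate 4 (9.21 to 10.04) and 8.35 in linoleate replicate 4 (9.57 to 10.36). Psmd5 had 7.49 in oleate replicate 8 (8.65 to 9.43). Psmd2 was high in palmitate replicate 7 at 11.25 (10.05 to 10.55) and in stearate replicate 1 at 10.54 (9.78 to 10.09). The difference of Psmd2 between oleate and stearate, 0.54 on the log2 scale, passed the test of the difference itself.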

How the results depend on the processing

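No background correction, 1 probe a gene and the series' value table left every count of members that passed within 1.5 times of the reported one, and oleate, linoleate and linoleate against oleate stayed at 0 throughout. Median scaling, which aligns the median of all 22517 probes, most of them not detected, gave 0 members under octanoate, 11 under stearate (all lower), 1 for stearate against palmitate and 3 for oleate against stearate. Under it the median of all tested probes stood at -0.13 under palmitate, -0.49 under stearate, -0.10 under oleate, -0.22 under linoleate, -0.12 for palmitate against octanoate and for linoleate against oleate, -0.39 for stearate against palmitate and 0.41 for oleate against stearate, and relative to that median Psmb8, Psmb9 and Psmb10 had -0.86, -1.01 and -0.95 under stearate. Psmc3 under stearate turned from 0.05 to -0.59 there (adjusted p = 0.0247), which is -0.10 relative to the median of all probes. Without the detection filter, with more probes tested, 1 passed under octanoate, 0 under stearate, 0 for oleate against stearate and 2 for any acid. The replicate block gave 7 under octanoate (18.9% of the members, beside 35.1% of all probes), 6 under palmitate (16.2% beside 22.8%), 4 for palmitate against octanoate (10.8% beside 5.66%) and 9 for any acid (24.3% beside 45.4%), and it changed no other count by over 1.5 times. Signal range as a covariate gave 6 under octanoate (beside 37.4% of all probes), 6 under palmitate (21.1%), 5 under stearate (18.4%), 1 for palmitate against octanoate (3.16%) and 8 for any acid (42.2%). Without the arrays numbered 4 and 7, 1 passed under palmitate, 1 under stearate and 2 for palmitate against octanoate, and with only the groups compared 0 for oleate against stearate. With single arrays left out, added after the data were seen, the counts were 2 to 4 under octanoate, 2 to 5 under palmitate (5 without control replicate 3), 0 to 4 under stearate (0 without stearate replicate 7, 1 without controls 2, 4, 6 or 7 or stearate 6 or 8), 0 to 1 for palmitate against octanoate (1 without octanoate replicate 4), 0 to 0 for stearate against palmitate, 0 to 1 for oleate against stearate (0 without oleate replicate 1) and 2 to 7 for any acid (2 and 3 without octanoate replicates 5 and 6). In the comparisons with control the replicate block has no pairing behind it, since same-numbered control and acid arrays did not deviate together. The cause of these shifts was not tested. The 3 ratios that passed also did so in every alternative tried for them. They reuse the Psmb9 and Psmb10 values and were chosen after these had been seen, so they are not separate support. Psma3, Psmc3ip and Psmd8, detected in 7, 9 and 21 arrays, are limited by signal near background. The same holds for Tap2 and Cd68 of the other lists, detected in 14 and 19 arrays.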
